A study of Mus musculus with 123 samples.

Results

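The mice whose livers are described here ate a low-fat diet (LFD) under the photoperiod that the labels call Equal light. They gave 20 libraries, 16.3% of all liver libraries of the series, chosen by their titles, which name the diet, the photoperiod and the sampling time. Livers were taken at 6 zeitgeber times (ZT, the hour counted within the light cycle), 4 h apart, with 3 libraries each at ZT0, ZT4, ZT8 and ZT20 and 4 each at ZT12 and ZT16. The labels give no strain, sex, age or genotype, do not say how many hours of light Equal light has or which event marks ZT0, and do not state whether a library is 1 animal or a pool. They assign no number to replicates, so the replicate numbers used here only name libraries, and p-values measure the spread between libraries of the same time. Poly-A RNA was sequenced, and expression is given as log2 CPM, the reads of a gene scaled to a common library size. The question asked of these 20 libraries was which genes and functions change over the day, when each is highest, and how large and how regular the change is.

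The circadian clock of mammalian cells is a feedback loop of transcription. BMAL1 (the product of Arntl) pairs with CLOCK or NPAS2 and activates genes that carry E-box sequences, among them the Per and Cry genes, whose products repress the pair. The REV-ERB receptors (Nr1d1 and Nr1d2) repress Arntl through RORE sequences at which ROR receptors activate it, and DBP, TEF and HLF activate genes through D-box sequences at which NFIL3 represses. In liver this loop and the daily rhythm of feeding together time the synthesis of fat, cholesterol, glycogen, bile acids and detoxifying enzymes.

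The libraries held 18100000 to 34576000 reads on genes, with a median of 23483000 (rounded, as recovered from the values). All 10 hepatocyte markers were detected in every library, at a summed level of 104000 to 147500 CPM. One library went against its label. Over 15 clock genes, the library labelled ZT12 replicate 4 lay 2.97 log2 units (root mean square) from the other ZT12 libraries and 0.400 from the ZT20 mean. The other 6 libraries whose clock genes were nearest to another time were nearest to an adjacent one. Each time mean left out only the library compared, so the ZT12 mean used for every other library included ZT12 replicate 4. ZT0 replicate 3 was farthest from its own group over all genes (0.877, against a median of 0.478), with a summed level of cholangiocyte markers of 278.5 CPM (56.2 to 88.7 in the other 19 libraries), of stellate cell and matrix markers of 1163 CPM (439 to 593 in the others) and of pericentral hepatocyte markers of 3176 CPM (6515 to 14320 in the others). In ZT0 replicate 3, male-biased liver genes summed to 4891 CPM (12600 to 32210 in the others) and female-biased ones to 156.3 CPM (9.42 to 92.9 in the others). The labels give no sex, and the cause was not tested. ZT4 replicate 1 held 4381 CPM of pancreas acinar markers (16.5 to 259 in the others), and ZT8 replicate 3 and ZT20 replicate 3 held 712 and 673 CPM of skeletal muscle markers (0.806 to 307 in the others). These 3 are called the marker-rich libraries. Counts are therefore given for all 20 libraries and again without the library labelled ZT12 replicate 4, without it and ZT0 replicate 3, or without the marker-rich libraries.

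A 24-h rhythm was called for 2137 of 13441 genes tested (15.9%), by limma's moderated F test on the 24-h cosine and sine parts of the 6 time means at a Benjamini-Hochberg adjusted p under 0.05. The number rose to 2959 (22%) without the library labelled ZT12 replicate 4, of which 2112 were among the 2137, to 3047 (22.7%) without it and ZT0 replicate 3, and was 1103 (8.21%) without the marker-rich libraries, of which 1027 were among the 2137. A difference of any shape among the 6 times was called for 829 genes (6.17%), of which 799 also had a called 24-h rhythm. That count was 1602 (11.9%) without the library labelled ZT12 replicate 4, 1846 (13.7%) without both libraries and 228 (1.7%) without the marker-rich libraries, and with single libraries left out it ran from 417 (without ZT4 replicate 1) to 1602. In bulk liver, a lower level can be fewer cells of a type or less RNA per cell, which cannot be told apart.

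Rhythmic genes were highest at every time of day. In the 20 libraries the highest mean fell at ZT0 for 340 genes (2.53% of all tested), at ZT4 for 410 (3.05%), at ZT8 for 295 (2.19%), at ZT12 for 254 (1.89%), at ZT16 for 406 (3.02%) and at ZT20 for 432 (3.21%). ZT12, with 11.9% of the rhythmic genes, was the least common peak. Without the library labelled ZT12 replicate 4 it was the most common, with 721 genes (5.36% of all tested), while ZT8 with 288 genes (2.14%) became the least common. Other single libraries also changed the order of the peak times. ZT0 was the most common peak without ZT0 replicate 1 (502 genes, 21.8% of the rhythmic genes) or replicate 2 (506, 22.4%). ZT8 was the most common without ZT8 replicate 3 (472 genes, 22.8%). Without the marker-rich libraries, ZT8 (24.3% of the rhythmic genes) and ZT20 (23.8%) held the most and ZT12 (9.52%) the fewest.

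**Figure D1:**
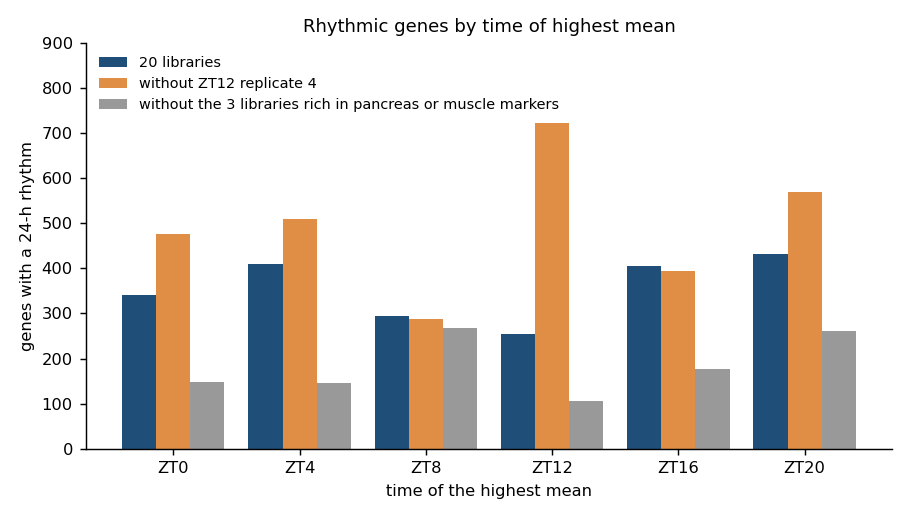
Number of genes with a called 24-h rhythm (vertical axis) by the time at which their mean was highest (horizontal axis), in all 20 libraries, without the library labelled ZT12 replicate 4, and without the 3 marker-rich libraries. The ZT12 bar goes from 254 to 721 genes when ZT12 replicate 4 is left out.

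Most rhythms were shallow. The 24-h amplitude, the log2 distance from the mean to the crest of the fitted cosine, had a median of 0.32 over the rhythmic genes against 0.15 over all genes tested, and 10% of the rhythmic genes exceeded 0.82. The highest and lowest time means differed at least 2-fold in 641 rhythmic genes, at least 4-fold in 168 and at least 8-fold in 47. Dbp had the largest amplitude, 3.26 ± 0.35 (SE). The median amplitude by peak time lay between 0.29 (ZT4) and 0.35 (ZT8). The prior added to each count in the deposited values lowers these folds in genes with few reads. Scatter between libraries can raise them, and neither effect was measured.

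**Figure D2:**
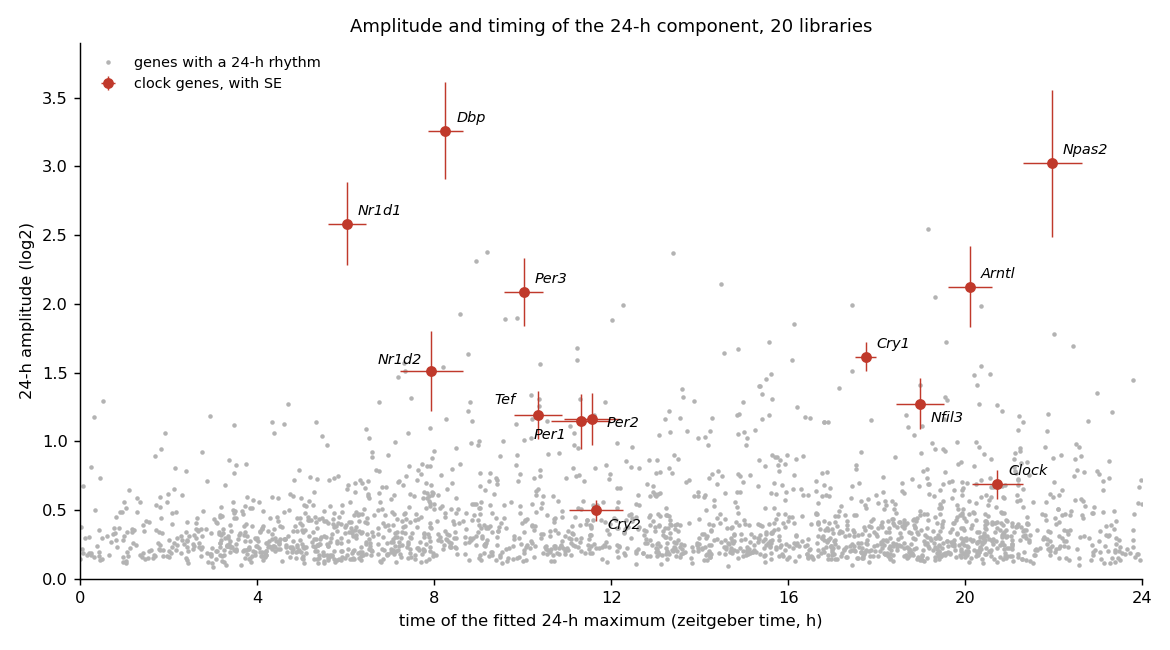
Amplitude of the 24-h component (log2, vertical axis) against the time of its fitted crest (ZT in hours, horizontal axis) for the 2137 rhythmic genes (grey) and 13 of the rhythmic clock genes (red, bars are SE), all 20 libraries. Clock genes run from Nr1d1 near ZT6 through Dbp, the Per genes and Cry1 to Arntl, Clock and Npas2 near ZT20 to ZT22, and Dbp and Npas2 lie highest.

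Of the 15 clock genes 14 had a 24-h rhythm in the 20 libraries, where 15.9% of all genes did, and all 15 had one without the library labelled ZT12 replicate 4. Their median amplitude was 1.34, against 0.15 over all genes tested. Hlf was the exception at 0.43 ± 0.13 (adjusted p = 0.0740, and 0.0121 without that library). The positive limb led at ZT20 and ZT0. Arntl, whose product BMAL1 is the obligate partner of CLOCK, stood at 5.34, 5.24 and 5.37 at ZT0, 2.28, 3.28 and 1.79 at ZT4, 0.89, 0.98 and 2.61 at ZT8, 1.59, 1.27, 2.91 and 5.40 at ZT12, 5.13, 4.61, 4.31 and 4.99 at ZT16, and 5.48, 5.48 and 5.37 at ZT20 (log2 CPM). Apart from the fourth ZT12 library, the values at ZT16, ZT20 and ZT0 (4.31 to 5.48) lay above those at ZT4, ZT8 and ZT12 (0.89 to 3.28). The amplitude was 2.12 ± 0.30 with a crest at ZT20.1 (adjusted p = 0.000877), and the highest mean was 15.5-fold above the lowest. Clock followed at ZT20.7 with an amplitude of 0.69 ± 0.11 (adjusted p = 0.00189). Npas2, which can replace Clock, had a mean of 4.09 at ZT0 and -1.58 at ZT8, where the floor of the table is -3.6, and an amplitude of 3.02 ± 0.54 (adjusted p = 0.00415).

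**Figure D3:**
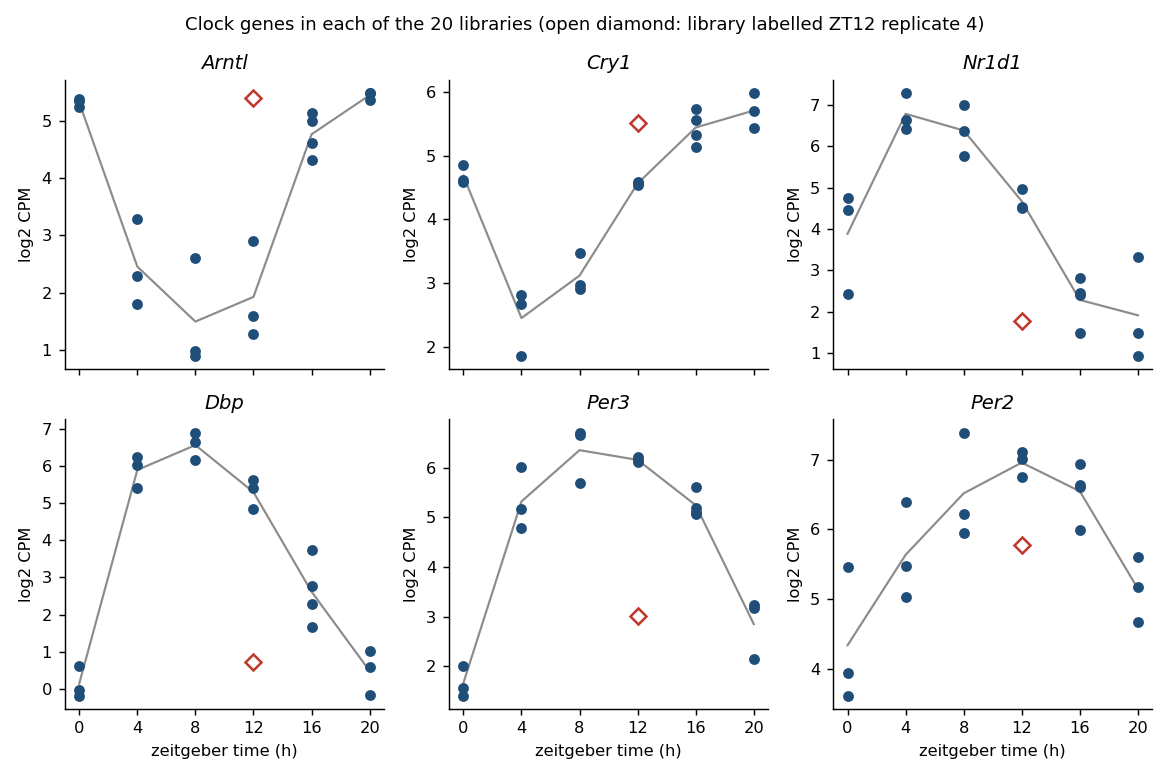
Level of 6 clock genes (log2 CPM, vertical axis) in each of the 20 libraries by sampling time (ZT in hours, horizontal axis), with a line through the time means taken without the library labelled ZT12 replicate 4 (open diamond). In Arntl, Cry1, Nr1d1, Dbp and Per3 the diamond lies outside the other ZT12 libraries and among the ZT20 values.

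The crests of the Per and Cry genes lay after those of the REV-ERB genes and before that of Arntl. Nr1d1 (REV-ERB alpha) stood at 4.76, 4.47 and 2.43 at ZT0, 7.28, 6.63 and 6.42 at ZT4, 5.77, 6.38 and 6.98 at ZT8, 4.98, 4.50, 4.54 and 1.78 at ZT12, 2.45, 1.49, 2.82 and 2.40 at ZT16, and 1.50, 0.94 and 3.32 at ZT20. Its ZT4 and ZT8 values (5.77 to 7.28) lay above those of all other libraries (0.94 to 4.98). Its amplitude was 2.58 ± 0.30 with a crest at ZT6.02 (adjusted p = 0.000269), and Nr1d2 followed at ZT7.94 with 1.51 ± 0.29 (adjusted p = 0.00736). Per3 stood at 2.01, 1.41 and 1.56 at ZT0, 5.17, 4.79 and 6.01 at ZT4, 6.71, 6.67 and 5.69 at ZT8, 6.21, 6.11, 6.16 and 3.0 at ZT12, 5.08, 5.11, 5.62 and 5.19 at ZT16, and 3.18, 3.23 and 2.14 at ZT20. Its ZT0 and ZT20 values (1.41 to 3.23) and that of the fourth ZT12 library lay below all others (4.79 to 6.71). The amplitude was 2.08 ± 0.25, the crest ZT10.0 and the range of means 25.9-fold (adjusted p = 0.000328). Per2, a core repressor, stood at 3.95, 5.46 and 3.62 at ZT0, 5.03, 5.48 and 6.40 at ZT4, 7.39, 6.21 and 5.95 at ZT8, 7.11, 7.0, 6.76 and 5.77 at ZT12, 6.61, 6.64, 5.99 and 6.94 at ZT16, and 5.18, 5.60 and 4.67 at ZT20. The values at neighbouring times overlapped, with 3 ZT12 libraries between 6.76 and 7.11 and the ZT8 libraries between 5.95 and 7.39. Per2 had an amplitude of 1.16 ± 0.19 and a crest at ZT11.6 (adjusted p = 0.00254), close to Per1 (1.14 ± 0.20, ZT11.3, adjusted p = 0.00366) and Cry2 (0.50 ± 0.08, ZT11.7, adjusted p = 0.00200).

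Cry1, the late repressor of the loop, had the smallest adjusted p of the 15, 4.51e-07. It stood at 4.62, 4.85 and 4.58 at ZT0, 1.86, 2.82 and 2.68 at ZT4, 3.47, 2.98 and 2.91 at ZT8, 4.59, 4.57, 4.54 and 5.51 at ZT12, 5.57, 5.33, 5.15 and 5.73 at ZT16, and 5.70, 5.99 and 5.44 at ZT20. Values at ZT4 and ZT8 (1.86 to 3.47) lay below all others, and 3 of the ZT12 libraries were within 4.54 to 4.59. Its amplitude was 1.62 ± 0.11 with a crest at ZT17.8, later than those of Per1, Per2, Per3 and Cry2.

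The D-box regulators fell into opposite parts of the day. Dbp stood at 0.62, -0.03 and -0.19 at ZT0, 6.25, 5.43 and 6.04 at ZT4, 6.65, 6.91 and 6.16 at ZT8, 5.64, 5.42, 4.85 and 0.72 at ZT12, 1.67, 2.77, 3.75 and 2.28 at ZT16, and 0.59, 1.01 and -0.17 at ZT20. All ZT0 and ZT20 values and that of the fourth ZT12 library were at or below 1.01, and all ZT4 and ZT8 values at or above 5.43. The crest was at ZT8.25 and the range of means 87-fold (adjusted p = 0.000176). Tef crested at ZT10.3 with 1.19 ± 0.17 (adjusted p = 0.00106). Nfil3, which competes for the same sites as a repressor, crested at ZT19.0 with 1.27 ± 0.19 (adjusted p = 0.00117). Among regulators tied to the clock, 6 of 14 were rhythmic (8 without the library labelled ZT12 replicate 4), led by Bhlhe41 (1.57 ± 0.13, ZT7.31, adjusted p = 8.53e-06), a repressor that binds E-boxes, and Ciart (2.38 ± 0.38, ZT9.20, adjusted p = 0.00212), a repressor of the CLOCK and BMAL1 pair.

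The promoters of 5 clock genes that hold these sequences are printed to show them beside the rhythms above. All come from RefSeq on build GRCm38.p6, read 5' to 3' on the gene's strand. Capitals mark the E-box (CACGTG), the D-box (TTATGNAA) or the RORE (ANTAGGTCA), and the search covered both strands of the 250 bases before and 50 after each annotated start. Per3, chr4:151044666-151044915 (minus strand), holds the D-box at 2 places. Per1, chr11:69098699-69098948 (plus strand), holds an E-box and a D-box. Tef, chr15:81802423-81802672 (plus strand), and Cry1, chr10:85185055-85185304 (minus strand), hold an E-box each. Arntl, chr7:113207528-113207557 (plus strand), holds a RORE at base 29 after 1 of its 2 annotated starts, and the 30 bases around it are given.

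Per3: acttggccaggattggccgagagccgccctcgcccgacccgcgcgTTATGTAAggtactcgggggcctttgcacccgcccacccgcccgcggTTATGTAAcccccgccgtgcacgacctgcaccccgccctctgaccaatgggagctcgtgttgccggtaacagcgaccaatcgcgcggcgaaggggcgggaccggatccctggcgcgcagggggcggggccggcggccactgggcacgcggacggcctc
Per1: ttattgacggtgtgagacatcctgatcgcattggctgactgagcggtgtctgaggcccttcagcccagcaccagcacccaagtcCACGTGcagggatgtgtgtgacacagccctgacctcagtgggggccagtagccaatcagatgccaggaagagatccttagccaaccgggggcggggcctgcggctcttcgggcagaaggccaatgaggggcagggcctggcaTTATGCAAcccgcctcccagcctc
Tef: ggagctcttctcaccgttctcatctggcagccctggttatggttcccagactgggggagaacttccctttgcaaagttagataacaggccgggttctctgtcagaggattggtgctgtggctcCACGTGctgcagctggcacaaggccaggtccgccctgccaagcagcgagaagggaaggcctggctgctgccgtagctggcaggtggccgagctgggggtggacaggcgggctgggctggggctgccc
Cry1: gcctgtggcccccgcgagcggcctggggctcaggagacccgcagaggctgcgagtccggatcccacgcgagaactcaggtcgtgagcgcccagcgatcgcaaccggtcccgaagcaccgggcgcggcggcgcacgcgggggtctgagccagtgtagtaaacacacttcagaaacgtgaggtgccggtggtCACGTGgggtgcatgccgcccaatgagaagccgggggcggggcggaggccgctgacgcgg
Arntl: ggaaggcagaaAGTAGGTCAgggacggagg

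Per1 and Per3, with a D-box, crested at ZT11.3 and ZT10.0. Tef and Cry1, with an E-box and no D-box in this window, crested at ZT10.3 and ZT17.8, so the same motif stood beside different phases. Over all genes tested, 11.6% of the 10246 with a promoter in the table held the E-box, 2.72% the D-box and 0.566% the RORE. The share with an E-box was 21.1% among rhythmic genes highest at ZT8, 16.7% at ZT4 and 8.28% at ZT20. For the D-box it was 6.77% among those highest at ZT12 (5.39% without the library labelled ZT12 replicate 4) and 2.27% at ZT0, and for the RORE 2.15% at ZT20. The core of the heat shock element (GAANNTTC) was held by 7.18% of all tested genes with a promoter, 11.4% of the rhythmic genes highest at ZT16, 11.5% of those at ZT12 (8.36% without the library labelled ZT12 replicate 4) and 9.20% of those at ZT20. The CCAAT box (CCAAT) was held by 43% of all and 33.9% of the rhythmic genes highest at ZT12, but by 41.1% of these without that library. A match is a description of these letters in this window.

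The genes with the largest daily range at each peak time are described next, up to 5 for each time, taken in order of the difference between the highest and lowest mean among genes called for any change with a mean of at least 2 log2 CPM. At ZT0 these were Cdkn1a, Chka, Acot1, Dtx4 and Csad. Cdkn1a encodes p21, an inhibitor of the cell cycle, and stood at 4.50, 4.75 and 6.30 at ZT0, 1.89, 1.45 and 1.37 at ZT4, 1.53, 0.45 and 1.01 at ZT8, 2.04, 1.19, 0.62 and 5.54 at ZT12, 2.25, 4.89, 3.80 and 4.14 at ZT16, and 4.78, 4.36 and 4.12 at ZT20. ZT0 and ZT20 values (4.12 to 6.30) lay above all ZT4 and ZT8 values (0.45 to 1.89), and the fourth ZT12 library stood at 5.54 where the other ZT12 libraries reached 2.04. The range of means was 18.2-fold (adjusted p = 0.00515 for the 24-h part). Chka, the choline kinase that starts phosphatidylcholine synthesis, stood at 7.55, 7.63 and 8.25 at ZT0, 4.95, 5.86 and 5.19 at ZT4, 4.69, 4.11 and 5.32 at ZT8, 5.35, 5.54, 5.63 and 8.15 at ZT12, 6.92, 6.83, 6.09 and 6.92 at ZT16, and 7.62, 7.98 and 7.30 at ZT20. All ZT0 and ZT20 values (7.30 to 8.25) exceeded all ZT4 and ZT8 values (4.11 to 5.86), with a range of means of 8.61-fold (adjusted p = 0.00113). Acot1, an acyl-CoA thioesterase, ranged 5.44-fold (adjusted p = 0.00205), and Dtx4, a ubiquitin ligase of the Deltex family, 4.43-fold (adjusted p = 0.00473). Csad, an enzyme of taurine synthesis, ranged 4.16-fold (adjusted p = 0.0302), and its call ended when any of 6 libraries was left out (ZT0 replicate 3, ZT8 replicate 1, ZT12 replicate 2 or 3, ZT20 replicate 1 or 3), with adjusted p up to 0.0755.

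At ZT4 the leading genes included Nr1d1, Rgs16, Gnat1 and Gpcpd1. Rgs16, a regulator that ends G protein signals, stood at 3.96, 5.26 and 1.56 at ZT0, 8.82, 8.68 and 7.49 at ZT4, 8.14, 7.82 and 8.02 at ZT8, 8.33, 8.03, 7.97 and 7.20 at ZT12, 7.23, 4.68, 4.86 and 7.27 at ZT16, and 4.04, 4.04 and 5.67 at ZT20. It was at 7.49 or above in all ZT4 and ZT8 libraries and at 5.67 or below in all ZT20 and ZT0 libraries, while the ZT16 libraries spread from 4.68 to 7.27. The range of means was 26.6-fold (adjusted p = 0.000884), but 13.4-fold without ZT0 replicate 3 (adjusted p = 0.000500) and 47.4-fold without ZT0 replicate 2. Gnat1, the G protein alpha subunit known from rod photoreceptors, had the smallest adjusted p of all genes named here, 3.58e-07, with an amplitude of 1.47 ± 0.09 and a crest at ZT7.17. Gpcpd1, which degrades glycerophosphocholine, ranged 4.80-fold (adjusted p = 0.00928), and its highest mean moved to ZT12 without the library labelled ZT12 replicate 4.

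The ZT8 genes were Dbp, Per3, Nr1d2, Fads3 and Tef, of which 4 are clock genes. Fads3, of the fatty acid desaturase family, ranged 8.20-fold with a crest at ZT7.35 (adjusted p = 0.000486). The highest mean of Tef moved to ZT12 without the library labelled ZT12 replicate 4.

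At ZT12 the leading genes were Thrsp, Lpin1, Slc2a4, Usp2 and Per1. Thrsp (Spot14), which promotes fatty acid synthesis, stood at 8.93, 8.81 and 4.23 at ZT0, 9.66, 10.64 and 10.95 at ZT4, 11.35, 10.66 and 10.33 at ZT8, 11.38, 11.65, 11.55 and 10.73 at ZT12, 10.90, 10.24, 10.51 and 11.44 at ZT16, and 9.06, 10.36 and 8.35 at ZT20. The ZT12 libraries (10.73 to 11.65) overlapped with those at ZT4, ZT8 and ZT16, and ZT0 replicate 3 at 4.23 was the lowest, with the next at 8.35. The range of means was 16.1-fold (adjusted p = 0.00911), but 5.49-fold without ZT0 replicate 3 (adjusted p = 0.00232), and 28-fold or 26.9-fold without ZT0 replicate 1 or 2. Lpin1, a phosphatidate phosphatase of triglyceride synthesis, stood at 6.26, 5.23 and 4.59 at ZT0, 7.70, 8.18 and 8.01 at ZT4, 8.22, 8.31 and 7.38 at ZT8, 9.36, 9.63, 9.59 and 7.99 at ZT12, 8.22, 6.90, 8.82 and 9.27 at ZT16, and 6.69, 6.96 and 5.94 at ZT20. Its 3 highest values were those of the other ZT12 libraries (9.36 to 9.63), and the 3 ZT0 values were among the 4 lowest. The range of means was 13.8-fold (adjusted p = 0.000680). Slc2a4, the insulin-regulated glucose transporter GLUT4 of muscle and fat, ranged 12.4-fold (adjusted p = 0.000680), and was also called without the marker-rich libraries (adjusted p = 0.00377). Usp2, a deubiquitinating enzyme, ranged 11.1-fold (adjusted p = 0.00239) and 21.5-fold without the library labelled ZT12 replicate 4.

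The ZT16 genes included Eif4ebp3, Zfp970, Caln1 and Ppp1r1b. Eif4ebp3, a translation inhibitor that binds eIF4E, stood at 2.37, 1.71 and 0.74 at ZT0, 1.72, 1.56 and 0.32 at ZT4, 1.15, 3.47 and 0.58 at ZT8, 4.09, 4.48, 3.69 and 2.67 at ZT12, 5.15, 4.91, 3.84 and 4.25 at ZT16, and 2.87, 3.10 and 3.58 at ZT20. All ZT16 values (3.84 to 5.15) exceeded all ZT0, ZT4, ZT8 and ZT20 values (0.32 to 3.58), and the other ZT12 libraries (3.69 to 4.48) overlapped with ZT16. The range of means was 10.1-fold (adjusted p = 0.000990). Zfp970, a zinc finger protein, stood at 2.36, 3.31 and 3.45 at ZT0, 3.37, 4.95 and 3.17 at ZT4, 4.61, 4.85 and 4.63 at ZT8, 5.03, 5.55, 5.38 and 4.11 at ZT12, 5.80, 5.60, 5.28 and 5.61 at ZT16, and 4.12, 4.79 and 4.83 at ZT20. Its ZT16 values (5.28 to 5.80) lay above those at ZT0, ZT4, ZT8 and ZT20, which reached 4.95, and the range of means was 5.79-fold (adjusted p = 0.00117). Caln1, a calcium-binding protein known from neurons, ranged 5.33-fold (adjusted p = 0.000185), and Ppp1r1b, an inhibitor of protein phosphatase 1 also known as DARPP-32, ranged 4.96-fold (adjusted p = 0.000135).

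At ZT20 the leading genes were Arntl, Clic3, Cry1, Ppard and Fam222a. Clic3, of the chloride intracellular channel family, stood at 4.17, 5.32 and 2.10 at ZT0, 0.53, 1.18 and 1.13 at ZT4, 1.38, 0.14 and 1.19 at ZT8, 2.75, 3.0, 0.62 and 3.44 at ZT12, 2.84, 3.19, 3.64 and 2.44 at ZT16, and 4.22, 4.33 and 4.31 at ZT20. The ZT20 libraries lay between 4.22 and 4.33, whereas ZT0 spread from 2.10 (replicate 3) to 5.32, and the ZT4 and ZT8 values reached 1.38. The range of means was 10.4-fold (adjusted p = 0.00212). Ppard, a nuclear receptor for fatty acids, ranged 7.46-fold with a crest at ZT19.6 (adjusted p = 0.00291), and Fam222a ranged 6.19-fold (adjusted p = 0.000328). Every gene named for these 6 times except Csad kept its 24-h call without the marker-rich libraries and without both libraries that stand apart.

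**Figure D4:**
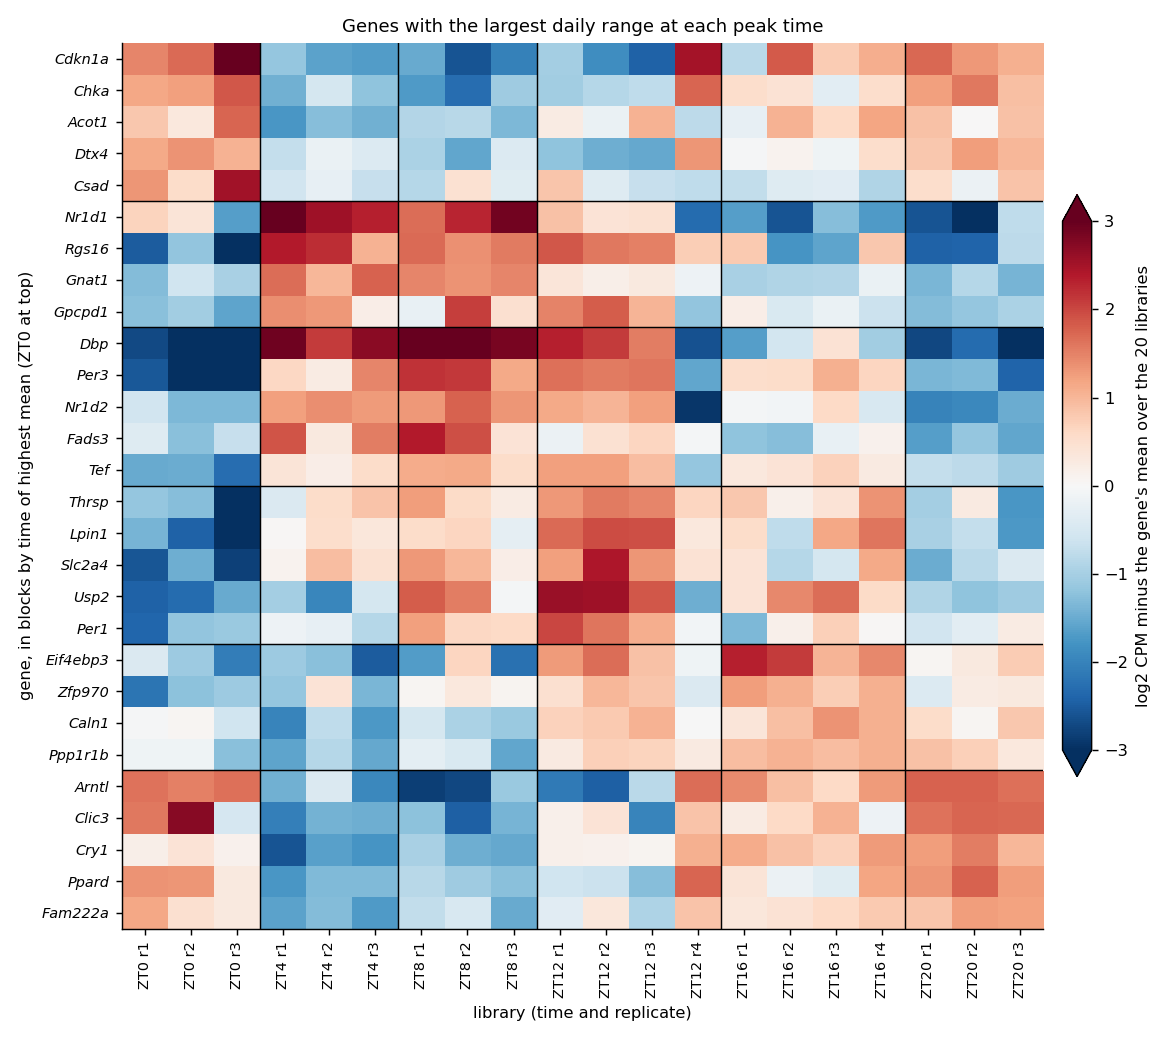
Level of the leading genes of each peak time, 4 or 5 a time (rows, in blocks from ZT0 at the top to ZT20) in each of the 20 libraries (columns, by time and replicate), as log2 CPM minus the gene's mean over the 20 libraries. The rows were chosen and ordered by the time of their highest mean in these libraries. The warm block therefore moves from the ZT0 columns through the day. In the ZT12 replicate 4 column the Dbp, Per3 and Nr1d2 rows are blue while Arntl, Chka and Ppard are red.

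Functions were read from 31 gene lists, and each count is to be set against the share of all genes called in the same fit. That share was 15.9% in the 20 libraries, 22% without the library labelled ZT12 replicate 4, 22.7% without both libraries that stand apart and 8.21% without the marker-rich libraries. Of 20 genes of fatty acid synthesis 9 were rhythmic (11 without the library labelled ZT12 replicate 4, 6 without the marker-rich libraries), 8 of them highest at ZT4, ZT8 or ZT12, and the median amplitude over the 20 was 0.86 against 0.15 over all genes. Fasn, the fatty acid synthase, had means of 12.76 at ZT8 and 10.36 at ZT0 (amplitude 1.29 ± 0.28, adjusted p = 0.0147, and 0.0507 without the marker-rich libraries). Lpin2, a phosphatidate phosphatase, had an amplitude of 0.79 ± 0.15 (adjusted p = 0.00566). Of 12 regulators of lipogenesis 4 were rhythmic, and 2 without the marker-rich libraries. Ppargc1b, a coactivator, was highest at ZT8 (0.82 ± 0.16, adjusted p = 0.00733) and Insig2, which retains SREBP in the endoplasmic reticulum, at ZT20 (0.93 ± 0.20, adjusted p = 0.0138). Of 23 genes of cholesterol synthesis 6 were rhythmic, all 6 highest at ZT4 or ZT8. Only 2 of the 23 were called without the marker-rich libraries.

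Of 30 genes of fatty acid oxidation and ketogenesis 6 were rhythmic, 20% of the list, 4 highest at ZT16 and 2 at ZT0. The count was 12 without the library labelled ZT12 replicate 4, with 4 of them highest at ZT12, and 4 without the marker-rich libraries. Slc25a20, the mitochondrial carnitine carrier, was highest at ZT16 (0.33 ± 0.06, adjusted p = 0.00340), and Acot1 has been given above. Among genes of lipid droplets and lipid uptake, 5 of 21 were rhythmic (8 without the library labelled ZT12 replicate 4), 3 highest at ZT16, 1 at ZT4 and 1 at ZT8. Plin5, a droplet coat protein that links droplets to mitochondria, was highest at ZT16 (0.59 ± 0.10, adjusted p = 0.00278), whereas Plin3, another coat protein, was highest at ZT4 (0.39 ± 0.07, adjusted p = 0.00479).

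Of 19 genes of glucose entry and glycolysis 10 were rhythmic (10 without the library labelled ZT12 replicate 4, 5 without the marker-rich libraries), 9 of them highest at ZT8, ZT12 or ZT16. Slc2a1, the glucose transporter GLUT1, was lowest at ZT4 with a mean of 2.50 against 3.13 to 3.62 at the other times (adjusted p = 0.000975). Of 13 glycogen genes 7 were rhythmic, and 6 without the marker-rich libraries. Gys2, the liver glycogen synthase, had an amplitude of 0.73 ± 0.12 and a crest at ZT10.3 (adjusted p = 0.00204). Gbe1, the branching enzyme, crested at ZT10.2 with 0.38 ± 0.06 (adjusted p = 0.00114). Phka2, a subunit of the kinase that starts glycogen breakdown, crested at ZT5.44 with 0.30 ± 0.04 (adjusted p = 0.000976). Of 17 genes of gluconeogenesis and fasting 7 were rhythmic, and 3 without the marker-rich libraries. Got1, a transaminase of the malate-aspartate shuttle, was highest at ZT4 (0.53 ± 0.08, adjusted p = 0.00130). Pck1 and G6pc, the enzymes that control glucose output, had amplitudes of 0.30 ± 0.22 and 0.13 ± 0.16 (adjusted p = 0.577 and 0.803). Both were named after their values were seen.

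**Figure D5:**
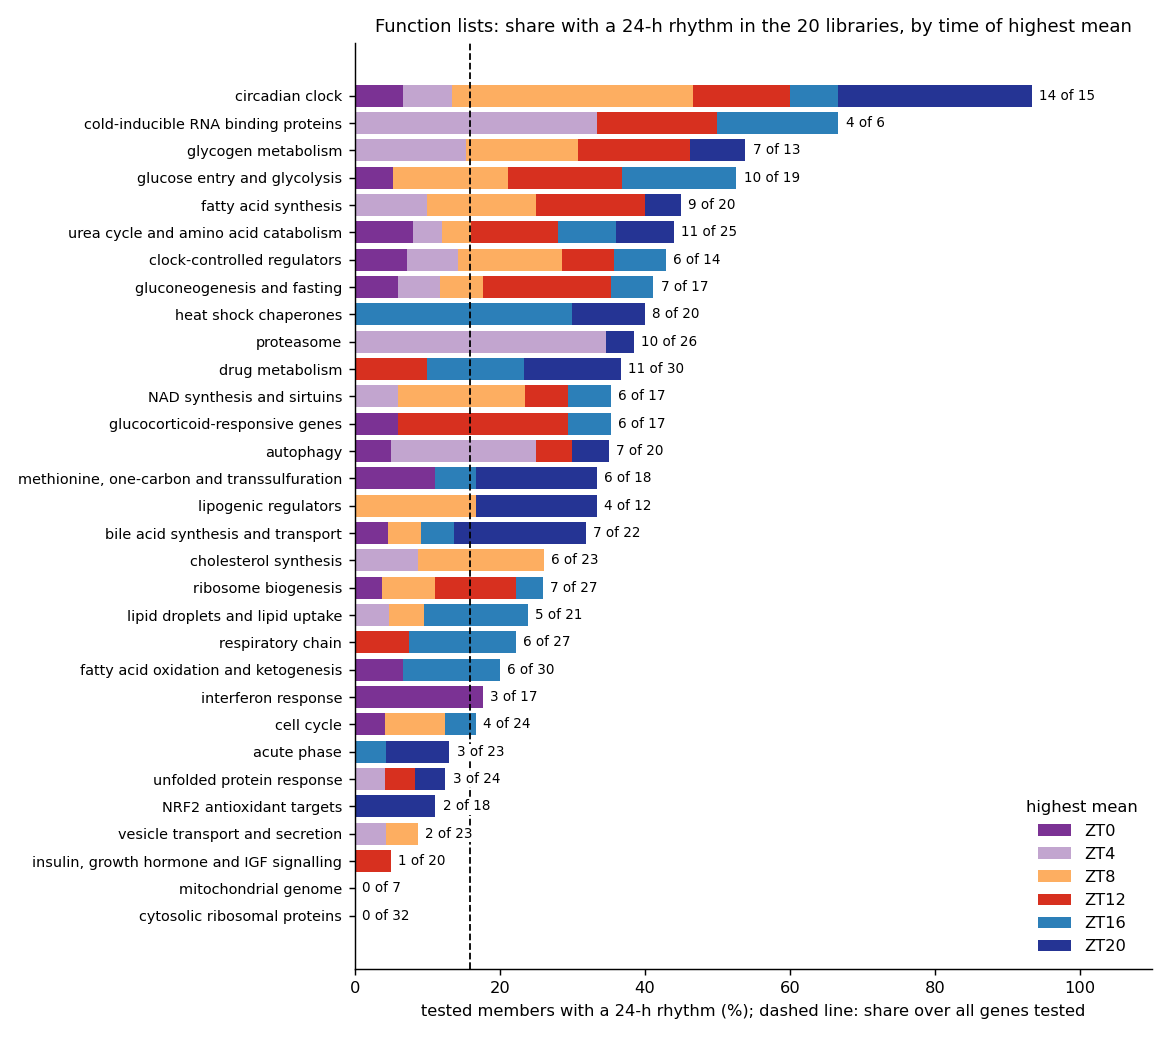
Share of the tested members of each of 31 function lists that had a called 24-h rhythm in the 20 libraries (horizontal axis, %), divided by the time of the highest mean (colour), with the numbers at the bar ends. The dashed line is the 15.9% of all genes tested. The circadian clock list is highest with 14 of 15, and the mitochondrial genome and cytosolic ribosomal protein lists are at 0.

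Of 30 drug metabolism genes 11 were rhythmic, all 11 highest at ZT12, ZT16 or ZT20, and their number was 16 without the library labelled ZT12 replicate 4, with 10 at ZT12, and 7 without the marker-rich libraries. Ces1d, a carboxylesterase, had means of 10.13 at ZT20 and 8.06 at ZT4 (amplitude 1.14 ± 0.13, adjusted p = 0.000269). Fmo5 and Fmo1, flavin monooxygenases, were highest at ZT16 with 0.65 ± 0.11 and 0.41 ± 0.06 (adjusted p = 0.00239 and 0.00194). Gsta3, a glutathione transferase, was highest at ZT20 (0.42 ± 0.07, adjusted p = 0.00293). Of 25 genes of the urea cycle and amino acid catabolism 11 were rhythmic, with at least 1 highest at each of the 6 times. Without the library labelled ZT12 replicate 4 there were 17, and 12 of them were highest at ZT12, and without the marker-rich libraries there were 5. Asl, argininosuccinate lyase of the urea cycle, crested at ZT14.0 (0.63 ± 0.10, adjusted p = 0.00200). Gldc and Amt, proteins of the glycine cleavage system, crested at ZT20.4 and ZT23.8 (0.59 ± 0.08 and 0.47 ± 0.07, adjusted p = 0.000810 and 0.00162).

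Of 18 genes of methionine, one-carbon and transsulfuration metabolism 6 were rhythmic (9 without the library labelled ZT12 replicate 4, 10 without both libraries, 4 without the marker-rich libraries), 5 of them highest at ZT20 or ZT0. Gclc, the catalytic subunit of the enzyme that limits glutathione synthesis, was highest at ZT20 (0.68 ± 0.11, adjusted p = 0.00180). Cbs, the enzyme that directs homocysteine to cysteine, crested at ZT1.81 (0.44 ± 0.06, adjusted p = 0.000959), and Ahcy, which releases homocysteine, at ZT15.9 (0.68 ± 0.11, adjusted p = 0.00239). Bile acid genes were rhythmic in 7 of 22 cases (11 without the library labelled ZT12 replicate 4, 13 without both libraries, 3 without the marker-rich libraries), 4 of them highest at ZT20. Abcb11, the bile salt export pump, had an amplitude of 0.45 ± 0.09 (adjusted p = 0.0106). Fgfr4, the receptor for FGF19 and mouse FGF15 that represses bile acid synthesis, was highest at ZT20 (0.34 ± 0.05, adjusted p = 0.00143). Cyp7a1, the rate-limiting enzyme, named after its values were seen, had an amplitude of 0.87 ± 0.30 (adjusted p = 0.123, and 0.0457 without the library labelled ZT12 replicate 4). NAD synthesis and sirtuin genes were rhythmic in 6 of 17 cases. Nmrk1, nicotinamide riboside kinase, crested at ZT12.4 (0.81 ± 0.12, adjusted p = 0.00114), and Nampt, the rate-limiting enzyme of NAD salvage, at ZT13.1 (0.62 ± 0.12, adjusted p = 0.00781).

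Of 20 heat shock chaperones 8 were rhythmic (10 without the library labelled ZT12 replicate 4, 3 without the marker-rich libraries), 6 highest at ZT16 and 2 at ZT20. Hsph1, a nucleotide exchange factor of HSP70, had means of 6.71 at ZT16 and 5.16 at ZT4 (0.66 ± 0.14, adjusted p = 0.0109). Fkbp4, a co-chaperone of steroid receptors, was highest at ZT20 (0.38 ± 0.07, adjusted p = 0.00530). Of 26 proteasome subunits 10 were rhythmic, 9 of them highest at ZT4, with a median amplitude over the 26 of 0.12, below the 0.15 of all genes. Psmc3, a subunit of the regulatory particle, had means of 6.72 at ZT4 and 6.40 at ZT20 (adjusted p = 0.00980). Only 1 of the 26 was called without the marker-rich libraries, of which ZT4 replicate 1 is the one with pancreas acinar markers, and their part in the count was not tested. Of 20 autophagy genes 7 were rhythmic (3 without the marker-rich libraries), 4 of them highest at ZT4. Ulk1, the kinase that starts autophagy, crested at ZT8.50 (0.59 ± 0.10, adjusted p = 0.00267).

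Of 6 cold-inducible and related RNA binding proteins 4 were rhythmic, and 1 without the marker-rich libraries. The 24 genes of the unfolded protein response held 3 rhythmic ones, 12.5%, below the share over all genes, and 1 without the marker-rich libraries. Trib3, a stress-induced pseudokinase, had means of 2.71 at ZT4 and 0.36 at ZT16 (1.12 ± 0.16, adjusted p = 0.000975). Of 17 interferon response genes 3 were rhythmic, near the share over all genes, all highest at ZT0. Rsad2 (viperin) had means of 4.50 at ZT0 and 2.57 to 3.47 at the other times (0.77 ± 0.16, adjusted p = 0.0114, and 0.0561 with library number as a covariate). Of 17 glucocorticoid-responsive genes 6 were rhythmic, with and without the marker-rich libraries, 4 of them highest at ZT12. Besides Lpin1 and Per1 these included Tsc22d3 (GILZ), with means of 7.47 at ZT12 and 5.43 at ZT4 (0.90 ± 0.14, adjusted p = 0.00194), and Zbtb16, a zinc finger repressor, with 5.60 at ZT12 and 3.36 at ZT4 (1.19 ± 0.19, adjusted p = 0.00220). Of 24 cell cycle genes 4 were rhythmic. Gadd45a, a growth arrest gene, was highest at ZT8 (0.71 ± 0.15, adjusted p = 0.0114), and Wee1, the kinase that holds back mitosis, at ZT8 (1.13 ± 0.26, adjusted p = 0.0208). Both were highest at ZT12 without the library labelled ZT12 replicate 4. The call for Wee1 ended without ZT0 replicate 2 (adjusted p = 0.0554).

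None of 32 cytosolic ribosomal proteins was called, with a median amplitude of 0.08 and a largest one of 0.19, and this held without the library labelled ZT12 replicate 4, without both libraries and without the marker-rich libraries. Rpl3 had the smallest p of them (0.12 ± 0.04, adjusted p = 0.0703). None of 7 genes of the mitochondrial genome was called in these settings, and ND4 led with 0.11 ± 0.06 (adjusted p = 0.425). Of 27 nuclear genes of the respiratory chain 6 were rhythmic (9 without the library labelled ZT12 replicate 4, 1 without the marker-rich libraries), with Cox5a, a subunit of complex IV, at 0.20 ± 0.03 (adjusted p = 0.00229). Of 27 genes of ribosome biogenesis 7 were rhythmic. Taf1b, of the RNA polymerase I machinery, crested at ZT5.92 (0.53 ± 0.08, adjusted p = 0.00202) and Rrp12 at ZT14.9 (0.39 ± 0.07, adjusted p = 0.00637). In the list of insulin, growth hormone and IGF signalling 1 of 20 was called, Foxo1, with 0.35 ± 0.08 (adjusted p = 0.0131, and 0.0591 without the marker-rich libraries), and 4 were called without the library labelled ZT12 replicate 4, and 0 without the marker-rich libraries. Acute phase genes were called in 3 of 23 cases, led by Il1r1, the interleukin 1 receptor (0.61 ± 0.12, adjusted p = 0.00886), NRF2 targets in 2 of 18 and vesicle transport genes in 2 of 23. The acute phase count was 6 without the library labelled ZT12 replicate 4, 8 without both libraries and 1 without the marker-rich libraries. The NRF2 count was 5 without both libraries and 1 without the marker-rich ones, where the vesicle count was also 1.

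Markers of other cell types were mostly without a called rhythm. None of 12 endothelial, 7 lymphocyte, 14 pancreas acinar, 14 skeletal muscle or 4 blood markers tested was called in the 20 libraries, and 1 of 15 markers of Kupffer cells and macrophages was. The median amplitude of the pancreas markers was 2.13 without a call, with their summed level at 4381 CPM in ZT4 replicate 1 and at 16.5 to 259 CPM in the others. Of 8 cholangiocyte markers tested 3 were called, all highest at ZT0, the time of the library with 278.5 CPM of these markers (ZT0 replicate 3). Without ZT0 replicate 3 and the library labelled ZT12 replicate 4 the count was 4, and without the marker-rich libraries it was 1. The cause of these calls was not tested. Of 13 stellate cell and matrix markers 2 were called, 4 without both libraries that stand apart and 0 without the marker-rich libraries. Of 14 periportal hepatocyte markers 4 were called (9 without the library labelled ZT12 replicate 4) and of 14 pericentral ones 3 (6 without it). Without the marker-rich libraries the periportal count was 4 and the pericentral count 0.

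Successive times were also tested against each other. Into ZT4, 65 genes rose (0.484% of those tested) and 94 fell (0.699%). Dbp rose most, by 5.77 ± 0.89 log2 (adjusted p = 0.00608), then Rgs16 by 4.73 ± 0.81 (adjusted p = 0.0104) and Per3 by 3.66 ± 0.63 (adjusted p = 0.0104). All ZT4 values of these 3 genes lay above all ZT0 values. The largest falls were those of Clic3, by 2.91 ± 0.69 (adjusted p = 0.0453), Chka, by 2.48 ± 0.54 (adjusted p = 0.0353), and Acot1, by 2.45 ± 0.44 (adjusted p = 0.0134), among genes with a mean of at least 2 log2 CPM and a name. No gene was called into ZT0 or into ZT8, where 1794 and 572 genes had an unadjusted p under 0.05, and voom on recovered reads called 0 in both. Into ZT12, 4 genes rose (0.0298%) and 2 fell (0.0149%). Cry1 rose by 1.68 ± 0.25 (adjusted p = 0.0241) and Shld2, a factor of DNA break repair, by 1.05 ± 0.18 (adjusted p = 0.0498), while Gnat1 fell by 1.25 ± 0.22 and Fgfr2, a growth factor receptor, fell by 0.76 ± 0.13 (both adjusted p = 0.0498). Into ZT16, 1 gene fell (0.00744%), Pkdrej, whose mean over the libraries is below the 2 log2 CPM asked of a named gene and which is named as the single call, and into ZT20 Mycl, a MYC family transcription factor and again the single call, fell by 2.02 ± 0.29 (adjusted p = 0.0239).

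The numbers of calls at the later steps depended on the library labelled ZT12 replicate 4. The steps into ZT4 and ZT20 compare no ZT12 library. For these 2 steps, leaving it out changed the estimated spread and not the means compared. Without it 27 genes rose (0.201%) and 1 fell (0.00744%) into ZT12. Into ZT16 39 rose (0.29%) and 20 fell (0.149%), and into ZT20 53 rose (0.394%) and 43 fell (0.32%). Into ZT4 there were 125 rises (0.93%) and 171 falls (1.27%). In the same fit Arntl rose by 2.84 into ZT16 (adjusted p = 0.00793), and Per3 fell by 2.40 into ZT20 (adjusted p = 0.00321). Without it and ZT0 replicate 3, 1.52% of genes were called into ZT4, 0.632% into ZT12, 0.885% into ZT16 and 1.58% into ZT20, so the step with the most calls differed from that in the 20 libraries. The share called into ZT4, 1.18% in the 20 libraries, was 0.193% without ZT4 replicate 1 and 2.25% without ZT0 replicate 1. The single calls into ZT16 and ZT20 were each lost in some fits with 1 library left out, where the count was 0. Without the marker-rich libraries 3 genes rose (0.0223%) and 9 fell (0.067%) into ZT4, 2 fell into ZT0 (0.0149%) and 0 were called into the other times.

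No departure from a single cosine was called at this number of libraries. The 12-h and 8-h parts of the 6 means passed the test for 0 of 13441 genes, with 927 genes (6.90%) at an unadjusted p under 0.05 and a smallest adjusted p of 0.285. Voom on recovered reads also called 0, with 862 genes under the unadjusted 0.05. The 24-h part made up a median of 86.7% of the variance between the time means in rhythmic genes and 58.7% in all genes tested. Shapes were therefore described, without a test, for the 829 genes with a difference of any shape. In 23 the highest mean lay apart from the others by at least 50% of the range (a single-time peak), 9 of them at ZT0. In 34 the lowest mean did so (a single-time trough), 16 of them at ZT16 and 8 at ZT0. In 30 there were 2 peaks, and 742 fell in none of these classes. Single-time peaks, single-time troughs and 2 peaks made up 2.77%, 4.10% and 3.62% of the 829 genes. Over all genes tested they made up 9.58%, 8.04% and 25.1%. Of the 30 genes with 2 peaks all had an unadjusted p under 0.05 for the non-sinusoidal part. The class was defined from the same means as that p, so the p is no separate support for the shape.

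The smallest unadjusted p belonged to Lonrf3 and Pkdrej (adjusted p = 0.285). The next 6 genes are among those with the smallest p and were chosen after their values were seen, with a mean of at least 2 log2 CPM, to show what such shapes look like. Tor3a, an interferon-induced ATPase of the endoplasmic reticulum, had a mean of 4.17 at ZT0 and of 2.51 to 2.99 at the other times (adjusted p = 0.300 for the non-sinusoidal part), and 49.9% of the variance of its means was in the 24-h part. Nr3c2, the mineralocorticoid receptor, had its lowest mean, 3.23, at ZT0 and lay between 3.88 and 4.55 otherwise. Mycl had its highest mean, 3.99, at ZT16 and its lowest, 1.98, at ZT20. Eif1a, a translation initiation factor, had means of 5.97 at ZT0, 5.05 at ZT8, 5.67 at ZT12, 5.28 at ZT16 and 5.92 at ZT20. Nfxl1 had means of 4.43 at ZT0, 3.72 at ZT8, 4.31 at ZT12, 3.68 at ZT16 and 4.64 at ZT20. Dennd4b alternated between 3.20 and 3.71 from time to time, with 85.1% of the variance in the 8-h part. For these last 5 the adjusted p was 0.385.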

How the data were processed

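Liver poly-A RNA libraries were aligned to the mouse genome (mm10, GRCm38) with STAR and counted with featureCounts of Subread 1.6.2, per the submitters' processing notes. The authors deposited 1 table of 15398 genes as log2 CPM with a prior of about 2 reads. Its normalization, gene annotation and strand setting are not given in the sources used here. Whole reads could be recovered for 99.5% to 99.7% of values (within 0.05 of a read).

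The 20 libraries were grouped by the diet, photoperiod and time in their titles. The 13441 genes that reached 1 CPM in 3 or more of these libraries were fitted with limma 3.58.1 in R 4.3.3 (moderated F and contrast tests with an intensity trend, 1 mean per time, no covariate). The 6 means were split into 24-h, 12-h and 8-h parts. P-values were adjusted over all 13441 genes by Benjamini-Hochberg with a threshold of 0.05, and every adjusted p in the text comes from limma. With library number as a covariate, quantile normalization, no filter, a pseudocount of 1 CPM, all 123 libraries, limma-voom on recovered reads (2019 genes called for a 24-h rhythm, against 2137), and each library left out, the fit was repeated. The scripts were tested on simulated data.

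Genes named were the clock list, the 5 with the largest range per peak time, up to 4 per function list by p, and the 3 largest rises and falls per step. Those outside the rule are marked, and some genes the rule selects are not reported here. Members, lists and tests were chosen with earlier results of these data known. Promoters are from RefSeq. Among 24 pairs of libraries of the same time none agreed within counting noise (smallest chi-square per degree of freedom 21.7).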

Additional observations from a re-analysis of the deposited data

Results flagged for a closer look

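In the 2 times with 4 libraries, 28 groups of 4 values (14 genes shown in every library) were checked for a library far from the others, and 7 were found. Chance gives about 1 in 20 for a single group. The groups of a time share the same 4 libraries and are not independent, so 1 library can account for several. Of the 7, 6 belonged to the library labelled ZT12 replicate 4. Its value was 1.776 for Nr1d1 (4.495 to 4.976 in the other ZT12 libraries), 0.7158 for Dbp (4.849 to 5.641), 3.003 for Per3 (6.114 to 6.212) and 7.99 for Lpin1 (9.362 to 9.631), below the others in each. It was 5.513 for Cry1 (4.535 to 4.589) and 8.148 for Chka (5.353 to 5.628), above the others. In ZT16 replicate 3, Chka stood at 6.089 against 6.835 to 6.921 in the other ZT16 libraries. All values are log2 CPM.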

How the results depend on the processing

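The 24-h count moved by over 1.5 times without the marker-rich libraries, to 1103, and by less in the other alternatives run. Leaving out single libraries gave 1464 (ZT20 replicate 1) to 2959 (ZT12 replicate 4). The count of any change was 2257 with all libraries of the series in the fit, 228 without the marker-rich libraries and 1846 without the 2 libraries that stand apart, an alternative chosen after seeing the data. Single libraries left out gave 417 (ZT4 replicate 1) to 1602 (ZT12 replicate 4). The non-sinusoidal count was 1 without the 2 libraries (Nedd9, adjusted p = 0.0109) and 0 to 0 with single libraries left out. Calls between successive times are shares of genes tested. Into ZT0 they were 2.05% with all libraries and 0.0149% without the marker-rich ones, and into ZT4 4.35% and 0.0893%. Into ZT8 the share was 0.00744% without the 2 libraries. Into ZT12 it was 0% with all libraries, 0.00744% with library number as a covariate, 0.0223% with voom, 0.0195% without a filter, 0% without the marker-rich libraries and 0.632% without the 2. Into ZT16 it was 0% with all libraries, the covariate, voom, a pseudocount of 1 CPM or no marker-rich libraries, and 0.885% without the 2. Into ZT20 it was 0.141% with all libraries, 0% with the covariate, voom or no marker-rich libraries, 0.0149% with quantile normalization and 1.58% without the 2. Leaving out single libraries gave 0% to 0.067% into ZT0, 0.193% (ZT4 replicate 1) to 2.25% (ZT0 replicate 1) into ZT4, 0% to 0% into ZT8, and, each highest without ZT12 replicate 4, 0.00744% to 0.208% into ZT12, 0% to 0.439% into ZT16 and 0% to 0.714% into ZT20. No named gene reversed. Of 157 named genes, 36 lost their call without the marker-rich libraries, 25 with the covariate and 4 with voom, and the cause was not tested. No paired analysis was run, because the labels name no pairing of libraries across times. With 3 or 4 libraries a time, shallow rhythms and shapes are limited by this number.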
